A study of Mus musculus with 6 samples.

Results

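Factor-reprogrammed mouse pluripotent cells were described by the cytosines whose methylation differed in the same direction from 1 reference library in both of 2 lines. The cells are induced pluripotent stem cells (iPSC) derived from germline stem cells, and the positions were chosen by their sign of difference: one was taken when the deposited tables of iPSC 1 and iPSC 2 both listed it with the same sign of difference. Positions 1 bp from a listed position of the opposite sign were left out. This gave 61328 positions of the 448072 listed in any table of the series, 57870 with higher methylation (hyper) and 3458 with lower methylation (hypo) than the reference. They are called shared positions here.

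The assay was reduced representation bisulfite sequencing, in which CpG-rich fragments of a digested genome are read after unmethylated cytosines have been converted. All 6 libraries come from cultured lines of the OG2 mouse strain, in which Pou5f1 regulatory sequence drives a fluorescent reporter. They are 1 line of germline stem cells (GSC), 2 independent iPSC lines made from GSC, 2 independent lines of germline-derived pluripotent stem cells (gPSC) and 1 line of embryonic stem cells (ESC). The labels name neither the factors used for reprogramming nor the passage of a line. The question named by the series is whether factor-mediated reprogramming leaves an epigenetic memory. The tables do not name their reference library. It is taken to be ESC, the only sample without tables, so a feature of the ESC line and a feature shared by the iPSC lines cannot be told apart. All tables share this reference, and equal values in both lines are not independent observations. The tables list no coverage and no methylation levels. The depth is unknown, and an unlisted position can be unchanged or unmeasured.

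In mammals, methylation is laid down mostly at CpG dinucleotides by DNA methyltransferases and is copied at cell division. Most CpGs outside promoters are methylated, whereas CpG-rich promoters usually are not, and dense methylation of a promoter goes with a silent gene. Promoters of many germ cell genes are an exception, since they gain methylation in the embryo and are spared in germ cells. Pluripotent cells in culture vary widely in their methylation with sex, medium and passage.

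The sequences of promoters with many shared positions show how closely these lie together. For hyper promoters, the 250 bases before the RefSeq start are printed 5′ to 3′ on the strand of the gene for Dpm1 (chr2:168230380-168230629, minus strand), Vmn2r29 (chr7:7278290-7278539, minus strand) and Mthfsl (chr9:88719588-88719837, minus strand), in build GRCm38.p6. Capitals mark the CpGs that hold a shared hyper position.
Dpm1: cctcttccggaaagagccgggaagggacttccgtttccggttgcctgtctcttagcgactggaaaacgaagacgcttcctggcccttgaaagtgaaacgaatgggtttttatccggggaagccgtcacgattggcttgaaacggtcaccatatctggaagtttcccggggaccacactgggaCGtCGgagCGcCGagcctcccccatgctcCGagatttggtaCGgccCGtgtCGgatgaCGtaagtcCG
Vmn2r29: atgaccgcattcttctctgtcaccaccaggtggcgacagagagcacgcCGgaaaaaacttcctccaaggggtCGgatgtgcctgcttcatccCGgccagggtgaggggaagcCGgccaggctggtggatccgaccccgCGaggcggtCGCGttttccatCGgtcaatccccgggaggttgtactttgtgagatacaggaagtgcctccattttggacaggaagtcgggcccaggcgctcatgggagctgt
Mthfsl: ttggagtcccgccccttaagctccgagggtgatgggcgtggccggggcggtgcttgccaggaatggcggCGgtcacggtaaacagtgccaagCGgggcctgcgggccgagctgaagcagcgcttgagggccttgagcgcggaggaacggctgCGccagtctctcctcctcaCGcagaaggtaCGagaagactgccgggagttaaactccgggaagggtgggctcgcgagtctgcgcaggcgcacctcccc
In Dpm1 the 10 marked CpGs are those nearest the start, at -67 to -1 bp from it, and the other 13 of the 23 CpGs in the stretch are unmarked. In Vmn2r29 8 of 17 CpGs are marked, and in Mthfsl 5 of 24.

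Hypo promoters are printed in the same way for Usp7 (chr16:8738343-8738592, minus strand), Mta1 (chr12:113098028-113098277, plus strand), Dnaja2 (chr8:85555362-85555611, minus strand) and Arl8a (chr1:135146584-135146833, plus strand). Here capitals mark the CpGs that hold a shared hypo position.
Usp7: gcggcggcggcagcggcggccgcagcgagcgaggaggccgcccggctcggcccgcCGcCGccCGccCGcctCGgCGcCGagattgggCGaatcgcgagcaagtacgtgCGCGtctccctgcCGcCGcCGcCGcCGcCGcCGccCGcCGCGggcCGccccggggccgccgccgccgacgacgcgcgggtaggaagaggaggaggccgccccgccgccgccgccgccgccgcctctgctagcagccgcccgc
Mta1: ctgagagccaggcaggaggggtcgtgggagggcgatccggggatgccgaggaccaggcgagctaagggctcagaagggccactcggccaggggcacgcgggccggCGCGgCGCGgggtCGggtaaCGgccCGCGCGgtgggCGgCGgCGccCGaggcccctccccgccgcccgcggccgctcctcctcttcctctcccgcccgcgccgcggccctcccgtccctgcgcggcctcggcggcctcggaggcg
Dnaja2: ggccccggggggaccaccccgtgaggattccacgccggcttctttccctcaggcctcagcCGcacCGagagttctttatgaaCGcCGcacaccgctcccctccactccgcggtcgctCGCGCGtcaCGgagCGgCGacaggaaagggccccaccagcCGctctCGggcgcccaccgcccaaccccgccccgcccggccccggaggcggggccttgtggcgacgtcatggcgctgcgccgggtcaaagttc
Arl8a: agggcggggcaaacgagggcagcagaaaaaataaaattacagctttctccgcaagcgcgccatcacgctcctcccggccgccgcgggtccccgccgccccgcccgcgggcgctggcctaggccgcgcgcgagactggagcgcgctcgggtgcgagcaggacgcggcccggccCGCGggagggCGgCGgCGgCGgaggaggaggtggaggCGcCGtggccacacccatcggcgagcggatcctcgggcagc
The marked CpGs gather in 1 part of each stretch and number 21 of 55 in Usp7, 13 of 39 in Mta1, 12 of 32 in Dnaja2 and 8 of 39 in Arl8a. CpGs on either side are unmarked, and whether they were measured is not known. Of the shared positions inside RefSeq promoter sequences, 565 of 567 hyper and 617 of 621 hypo positions stood on the C or the G of a CpG. Positions within a run are often read on the same molecules, so the number of positions is not a number of independent observations.

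The shared positions were mainly hyper. Among the 241910 positions listed in either iPSC line, 23.9% were hyper and 1.43% hypo in both, and 67 were listed with opposite signs in the 2 lines. These shares follow from the rule and from what each table lists, and they are given as description. The median difference of the hyper positions was 58.23 points in iPSC 1 (quartiles 43.62 and 74.5) and 57.33 points in iPSC 2 (quartiles 42.97 and 73.53). For the hypo positions it was -51.42 points in iPSC 1 (quartiles -66.67 and -37.65) and -50 points in iPSC 2 (quartiles -65.58 and -36.1). The 2 lines thus had medians within 2 points of each other in either direction, for positions that were selected for being listed in both.

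**Figure D1:**
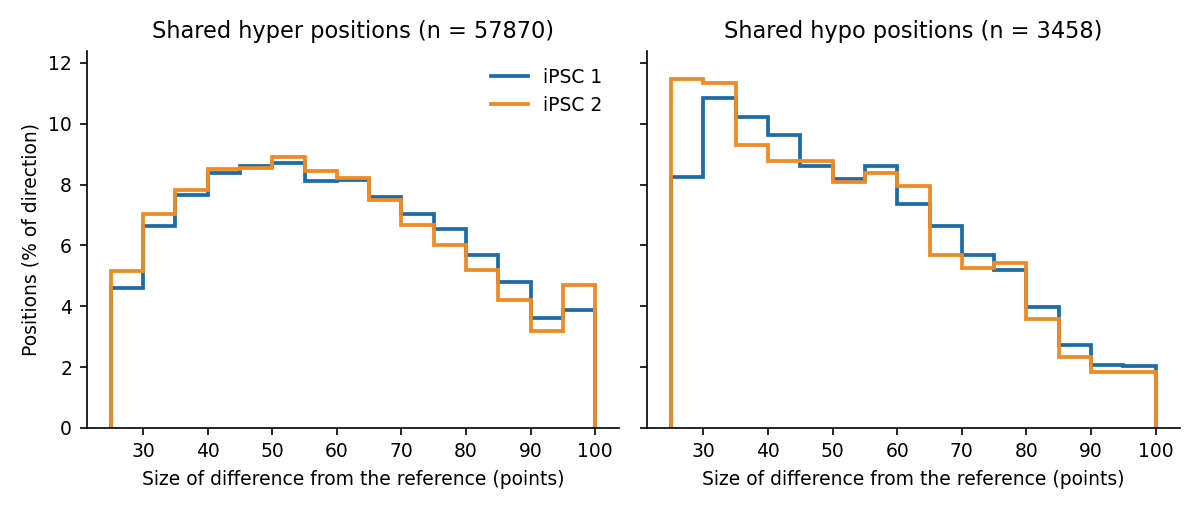
Size of the difference from the reference at shared positions, in percentage points on the horizontal axis, against the percentage of positions in each bin of 5 points, for iPSC 1 (blue) and iPSC 2 (orange). Hyper positions (left) have medians of 58.23 and 57.33 points, and hypo positions (right) are most frequent in the 2 bins nearest the threshold of 25 points in iPSC 2.

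At single positions the lines lay closer together among hypo than among hyper positions. The median gap between iPSC 1 and iPSC 2 was 2.81 points for hypo and 7.42 points for hyper positions, and the largest gaps were 72.22 and 72.0 points. The gap was at most 10 points at 80.8% of hypo and 61.6% of hyper positions. Both lines had the same value, within 1e-06 points, at 886 hypo positions (25.6%) and 1534 hyper positions (2.65%). Of the equal hyper positions 40.9% were at 100 points, the largest difference possible, against 3.84% of the equal hypo positions. The reference level bounds a difference of any size. Where both lines are unmethylated, or both fully methylated, their values are therefore equal. Methylation levels are not listed, so how many equal or close values arose in this way was not tested.

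The thresholds of the tables set where the shared positions end. Every listed position had a q-value of at most 0.01 and a difference of at least 25 points, and the smallest shared differences were 25 points in both lines for hyper positions. For hypo positions they were 25.055 points in size in iPSC 1 and 25.016 points in iPSC 2. Just outside are positions listed in 1 line alone. iPSC 1 alone listed 48757 hyper positions (median 44.12 points) and 9453 hypo positions (median -52.94 points). iPSC 2 alone listed 61024 hyper positions (median 63.64 points) and 20635 hypo positions (median -73.33 points). The line-specific positions of iPSC 2 therefore had larger differences than its shared ones, and the hyper ones of iPSC 1 had smaller ones. Median q-values were higher at positions of 1 line than at shared ones, for hypo positions 0.00105 against 8.89e-05 in iPSC 1 and 0.00145 against 6.66e-06 in iPSC 2.

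The removal of positions next to an opposite one bore mostly on the hypo side. Before it, 61765 positions were hyper and 7982 hypo in both lines, and it took out 3895 of the hyper (6.31%) and 4524 of the hypo positions (56.7%). Among the shared positions that were kept, 735 hyper pairs and 6 hypo pairs lay 1 bp apart, 2.54% and 0.347% of the positions. Hypo positions were thus far more often left out for an opposite neighbour than kept with a shared neighbour of the same sign. The reason was not tested, and it limits trust in the kept hypo positions too. All of the removed positions that fall inside RefSeq promoter sequences stood on a CpG. The deposited strand column reads plus at every listed position, although 49.0% of the covered hyper and 47.0% of the covered hypo positions stood on the C and nearly all others on the G. A further 151 hyper and 150 hypo shared positions lay 2 to 5 bp from an opposite one and were kept.

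Hyper and hypo positions lay in different places relative to genes. RefSeq starts were used for this, with a promoter window of 2000 bp before to 500 bp after each start. Of 56005 hyper positions on chromosomes with starts, 4.95% lay in a promoter window, 51.0% elsewhere in a gene and 44.0% outside genes. Of 3384 hypo positions, 52.1% lay in a promoter window, 36.2% elsewhere in a gene and 11.6% outside genes. Positions of 1 line alone had 8.29% (hyper) and 32.2% (hypo) in promoter windows, so the contrast between directions was present there too and smaller. The feature column of the deposited tables was not used for this, because it marks genes of the 2 strands unequally. It calls promoter 89.2% of the hypo positions in windows of plus-strand genes and 43.6% of those in windows of minus-strand genes.

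**Figure D2:**
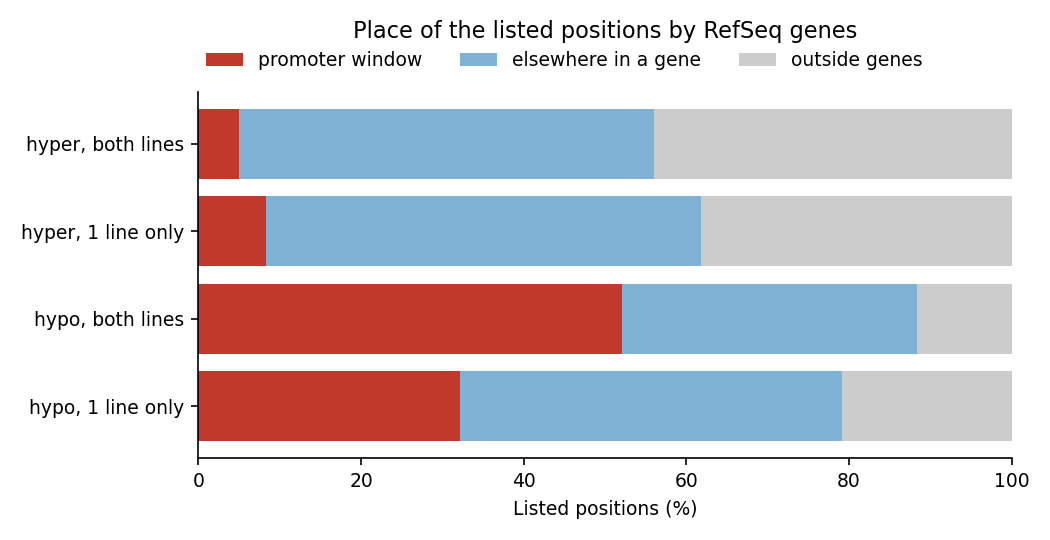
Percentage of listed positions in a RefSeq promoter window (red), elsewhere in a gene (blue) and outside genes (grey), for positions shared by both iPSC lines and for positions of 1 line alone. Promoter windows hold 4.95% of shared hyper and 52.1% of shared hypo positions.

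The median distance to the nearest start was 28447 bp for hyper and 568 bp for hypo positions. Within 500 bp of a start lay 1668 hyper positions (2.98%) and 1625 hypo positions (48.0%), so near starts the 2 directions were about equally numerous. Beyond 5000 bp lay 85.5% of hyper and 34.4% of hypo positions. In both directions the 250 bp after the start was the fullest bin, with 607 hyper and 667 hypo positions. Which positions near starts were measured is not known, so these counts are not rates.

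**Figure D3:**
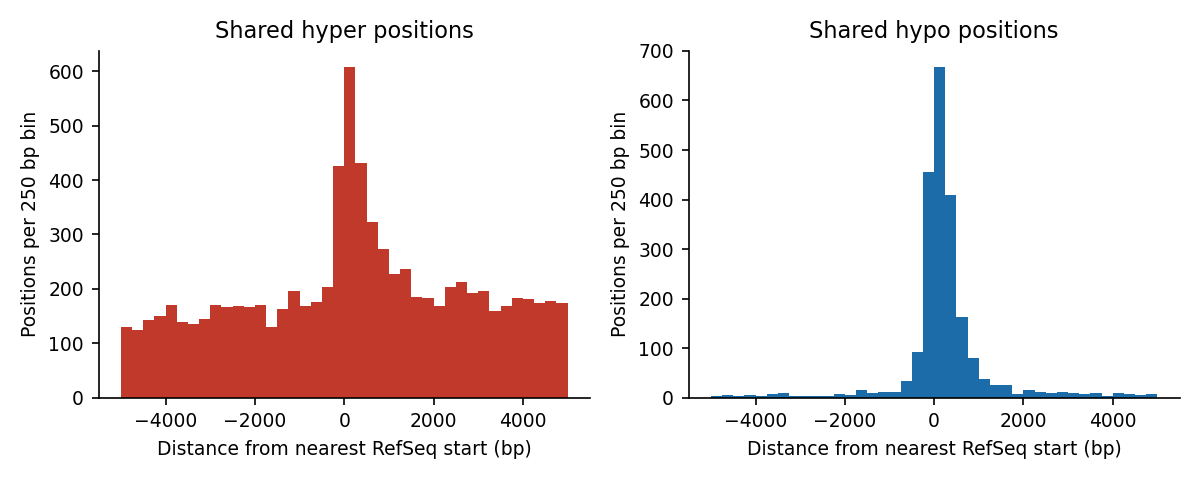
Number of shared positions in bins of 250 bp by distance from the nearest RefSeq start, negative before it, for hyper (red) and hypo (blue) positions. Both peak in the first 250 bp after the start, at 607 and 667 positions, and hyper positions continue at over 100 per bin out to 5000 bp whereas hypo positions do not.

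Across chromosomes, shared hyper positions made up 31.4% to 36.9% of the hyper positions listed in either line on the autosomes. On X the share was 45.4% (2497 of 5505) and on Y 53.4% (150 of 281). The median hyper difference on X was 61.57 points in iPSC 1 and 62.36 points in iPSC 2, and on Y 66.15 and 69.79 points. Both exceeded the autosomal medians, of which the highest was 60.86 points in iPSC 1 and 58.57 points in iPSC 2, on chromosome 3. For hypo positions the autosomes ranged from 7.5% to 11.7%, X had 13.5% (89 of 657), and none of the 7 on Y was shared.

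In 1000 bp windows tiling the genome, 5473 windows were hyper in both lines (14.8% of 37051 windows with 3 or more listed positions in any library) and 117 were hypo (0.316%). A window counted when each line listed at least 3 positions of the direction there and these were at least 80% of its listed positions. The fullest hyper window, inside Stk3, a kinase of the Hippo pathway that limits organ growth, held 28 shared positions over 877 bp (chr15:35117078-35117954). The mean difference over its listed positions was 86.9 points in iPSC 1 and 69.1 points in iPSC 2, beside 89.4 points in GSC, 80.8 points in gPSC 1 and 70.2 points in gPSC 2. Chst9, a sulfotransferase gene on chromosome 18, held 23 shared hyper positions over 949 bp in a window with means of 59.2 points in iPSC 1 and 55.4 points in iPSC 2, and its distance from a promoter was not analysed here. The next 3 windows held 20 each, outside genes on chromosomes 2 and 4, with window means of 46.3 to 73.3 points in iPSC 1 and 47.4 to 63.3 points in iPSC 2. All 5 libraries listed these windows as hyper, with at most 1 hypo position in a library.

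Hyper positions inside genes but outside the gene's own promoter window were most numerous in long genes. Camta1, a calmodulin-binding transcription activator, held the most, 63 over a gene of 802246 bp, at mean differences of 56.2 points in iPSC 1 and 57.5 points in iPSC 2. Zfhx3, a zinc finger homeobox factor, held 59, Tenm3, a cell adhesion protein that guides neural wiring, 49, Gse1 42, Cux2, a homeobox factor of upper cortical layers, 41, Prdm16, a regulator of brown fat and haematopoietic stem cells, 39, and Tmem132c 36. Per length these genes held from 3.78 positions per 100 kb in Tenm3 to 21.3 in Cux2, against a median of 5.9 over the 7528 genes with a hyper body position. Filip1, a regulator of filamin, held 57 positions, 27.4 per 100 kb, and included a window of 18 shared positions. Its mean differences were 68.8 points in iPSC 1 and 59.4 points in iPSC 2.

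Outside promoters the fullest hypo window held 17 shared positions over 206 bp outside genes (chr9:72133103-72133308), 21210 bp from Tcf12, with window means of -61.0 points in iPSC 1 and -67.9 points in iPSC 2. Hypo positions inside genes, again outside only the gene's own promoter window, were fewer than hyper ones. Cul4b, a cullin of ubiquitin ligases on X, held 14 in 110 bp (chrX:38564677-38564786), at -43.2 points in iPSC 1 and -49.8 points in iPSC 2. In GSC the same window held 14 hypo positions at -56.3 points, in gPSC 1 it held 1 hyper position at 34.4 points, and gPSC 2 listed none. Rai1, a chromatin reader gene, held 8 in 83 bp at -61.9 and -57.3 points. Zic5, a zinc finger factor of neural development, held 7 at -39.0 and -38.2 points. Grin2c, an NMDA receptor subunit, held 6 at -72.3 and -74.0 points, and Tapbp, which loads peptides on MHC class I, held 6 at -65.0 and -64.9 points. Ccni, Eef1akmt4-ece2 and Nfic held 5 each, between -59.3 and -43.9 points in iPSC 1 and between -58.6 and -44.0 points in iPSC 2. The 2 lines differed by under 7 points in each of these genes. Some of these positions lie in the promoter window of another gene. The 6 of Tapbp are those of Gm19412, whose promoter was called hypo with 6 shared positions. Eef1akmt4-ece2 contains the promoter window of Camk2n2, called hypo with 5 shared positions.

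At promoters, 310 genes were hyper in both lines and 91 hypo, by the rule used for windows. These were 5.18% and 1.52% of the 5987 promoters with 3 or more listed positions in any library. The rule asks for no shared position, and some called promoters held 0, such as Stt3b (hyper) and Nup50 (hypo). Genes with overlapping windows count separately, such as Dpm1 and Gm20716 with the same window, so the counts are not numbers of separate loci. Taken alone, iPSC 1 had 738 hyper promoters (12.3%) and 453 hypo ones (7.57%), and iPSC 2 had 751 (12.5%) and 695 (11.6%). Called promoters of the 2 directions differed in CpG content. The median number of CpGs in the 300 bases around a start was 7 for hyper promoters, 28 for hypo promoters and 19 for all promoters assessed.

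Among hyper promoters the largest number of shared positions was at Dpm1. Dpm1, the catalytic subunit that makes the mannose donor of glycosylation, held 21, at 43.8 to 77.6 points in iPSC 1 (median 48.7) and 46.7 to 88.5 points in iPSC 2 (median 66.7), where 1 of the 21 was lower. Over all listed positions the order of the lines was the other way, with means of 53.9 points in iPSC 1 and 47.3 points in iPSC 2, which also listed 5 unshared hypo positions there. In GSC the promoter held 6 hyper and 6 hypo positions, and it was hyper in gPSC 1 (60.7 points) and gPSC 2 (66.1 points). Pawr, a pro-apoptotic partner of the WT1 tumour suppressor, held 16 within 93 bp, starting 349 bp after the start. They ranged from 39.6 to 60.4 points in iPSC 1 and from 33.3 to 52.2 points in iPSC 2, where each of the 16 was lower. The promoter means were 54.9 and 49.0 points, beside 26.6 points in GSC, 40.5 points in gPSC 1 and 47.3 points in gPSC 2. GSC thus had the smallest mean, which includes 1 hypo position.

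Pou4f1, a homeodomain factor of sensory neurons on chromosome 14, was the 1 lineage regulator called. It held 14 shared hyper positions between 95 and 184 bp after the start, at 45.3 to 50 points in iPSC 1 and 57.8 to 62.5 points in iPSC 2. GSC listed the same 14 as hyper, at 56.2 to 64.3 points, and 17 hypo positions at -64.9 to -56.7 points between 8 and 90 bp after the start. The iPSC lines listed none of those 17, gPSC 1 listed 1 hypo position at -36.5 points and gPSC 2 listed none. The sign in GSC therefore changed between 90 and 95 bp, from 1 to the other of 2 runs of nearly constant value.

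The next hyper promoters held 13 to 7 shared positions each, given here by the median over those positions in iPSC 1 and in iPSC 2. Tlk1, a kinase of chromatin assembly, held 13 at 37.8 and 35.2 points. Mthfsl, of the folate enzyme family, held 12 at 64.7 and 45.4 points, and GSC listed no position in its promoter. Ina, a neuronal intermediate filament, held 9 at 43.2 and 46.2 points, and Nt5c2, a nucleotidase with 7 starts, held 10, of which 9 are Ina's because the windows overlap. Zbtb7a, a zinc finger repressor, held 10 hyper positions at 31.6 and 29.1 points and 1 hypo position. Vmn2r29, a vomeronasal receptor, held 9 hyper positions at 48.2 and 51.5 points and 1 hypo position. Calhm1, an ion channel of taste cells, held 8 at 45 and 53.8 points, Gas2l2 8 at 54.6 and 45.6 points, and Col15a1, a basement membrane collagen, 8 at 37.6 and 28.3 points. Tmem18 held 7 at 66.7 and 75 points and Arhgef18 7 at 56.1 and 38.3 points. The lines lay within 10 points of each other at these medians, except at Mthfsl and Arhgef18. All 7 positions of Arhgef18 and 9 of the 12 of Mthfsl were lower in iPSC 2. Those of Arhgef18 lay at -1983 to -1818 bp from a start, at the far end of the promoter window. Neither iPSC line listed a position close to a start of Arhgef18, whereas GSC listed 5 hypo positions around its other start.

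**Figure D4:**
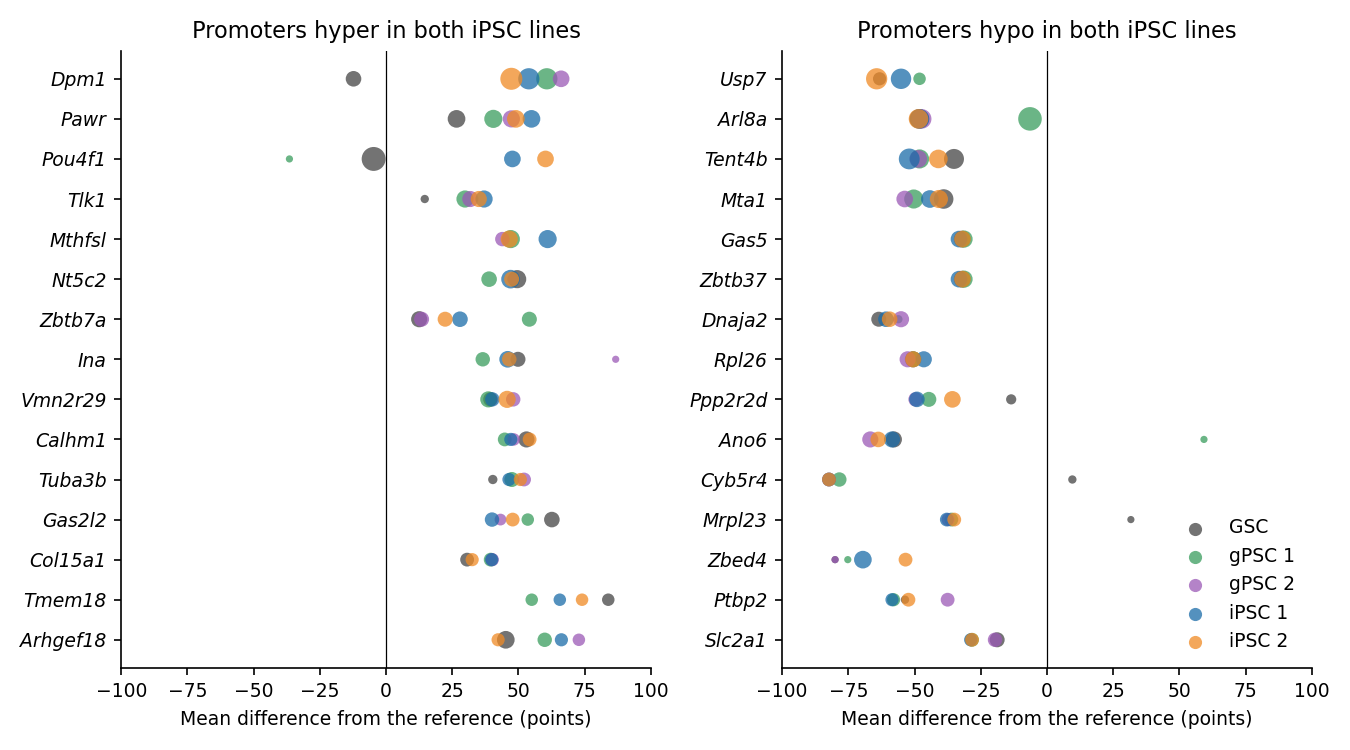
Mean difference from the reference, in percentage points, over the listed positions of the 15 hyper (left) and 15 hypo (right) promoters with the most shared positions, 1 dot per library with an area that grows with its number of listed positions. The iPSC dots (blue and orange) lie between 22.3 and 74.0 points on the left and between -82.3 and -28.3 points on the right, while single dots of GSC and gPSC 1 fall on the other side of 0.

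Among hypo promoters Usp7 and Arl8a held the most shared positions. Usp7, a deubiquitinase that stabilises Mdm2 and p53, held 21 shared positions in the 99 bp printed above, at -57.5 to -46.6 points in iPSC 1 and -65.7 to -58.9 points in iPSC 2. Each of the 21 was lower in iPSC 2. GSC listed 1 of the 21, at -36.9 points, gPSC 1 listed none of them and 1 hyper position within the run at 25.4 points, and gPSC 2 listed no position in the promoter. GSC and gPSC 1 also listed hypo positions at Usp7, at -77.7 to -58.3 points and at -83.2 to -77.7 points from -890 to -784 bp from the start.

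Arl8a, a small GTPase that moves lysosomes, held 20 shared positions from -77 to 45 bp of its start, and its values were nearly the same in all libraries. The means were -48.1 points in iPSC 1, -48.5 points in iPSC 2, -48.2 points in GSC and -47.3 points in gPSC 2. gPSC 1 listed the same 20 as hypo and 10 hyper positions at 77.4 points just before them, which brought its mean to -6.4 points. At Cyb5r4, a cytochrome b5 reductase, all 9 shared positions had equal values in both iPSC lines, from -86.4 to -78.7 points. Both gPSC lines had the same 9 values as well, so 4 libraries gave 1 series of numbers against their common reference. GSC listed 1 of the 9, at -65.5 points, and 1 hyper position at 84.6 points.

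The other hypo promoters are given in the same way, by the median over shared positions in iPSC 1 and in iPSC 2. Tent4b, which adds poly(A) tails to nuclear RNAs, held 16 at -57.6 points in both lines, of which 12 were equal. Mta1, a subunit of the NuRD chromatin remodeller, held 14 hypo positions at -60 and -58 points and 2 hyper positions. Dnaja2, an Hsp70 co-chaperone, held 12 at -59.6 and -60.5 points, and Rpl26, a ribosomal protein, 12 at -44.8 and -50 points. The means over all listed positions of these 4 promoters were below 0 in GSC and in both gPSC lines too. Gas5, a non-coding host of small nucleolar RNAs, and the divergent Zbtb37 share 13 positions at -32.4 and -29.7 points, and gPSC 2 listed none there. Ppp2r2d, a phosphatase 2A subunit, held 12 at -46.9 and -45.5 points, Ano6, a phospholipid scramblase, 11 at -65.9 and -63.7 points, and Mrpl23, of the mitochondrial ribosome, 9 at -39.1 and -34.1 points. Zbed4 held 8 at -58.1 and -50 points, Ptbp2, a splicing repressor of neurons, 8 at -58 and -54.6 points, and Slc2a1, the glucose transporter Glut1, 8 at -28.6 points in both lines. The medians of the 2 lines lay within 10 points of each other at each of these promoters. Unshared positions widen that gap in the means over all listed positions. These were -69.5 and -53.4 points at Zbed4, -49.1 and -35.7 points at Ppp2r2d, and -52.0 and -41.0 points at Tent4b.

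**Figure D5:**
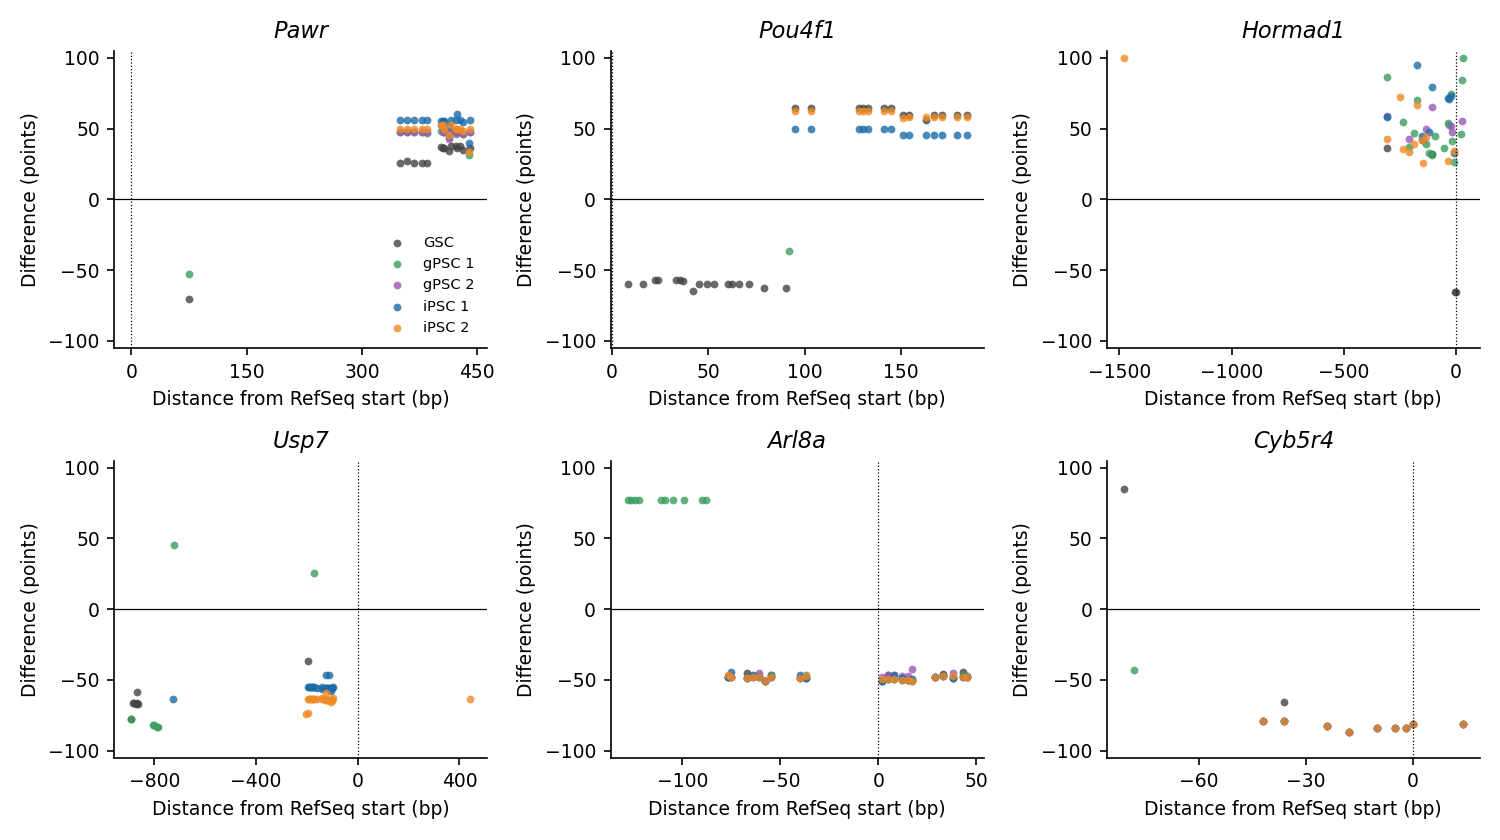
Difference from the reference at each listed position, in percentage points, against the distance from the RefSeq start in bp, for 3 hyper (top) and 3 hypo (bottom) promoters, coloured by library. Values form flat runs at Pou4f1, Arl8a and Cyb5r4, whereas the shared positions of Hormad1 range from 32.4 to 95.2 points in iPSC 1. The 9 positions of Cyb5r4 coincide in 4 libraries, and in Pou4f1 the GSC run changes sign 95 bp after the start.

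Germ cell genes were examined as a list of 49, of which 21 had an assessed promoter. Of these 21, 8 (38.1%) were hyper in both iPSC lines and 0 hypo, beside 5.18% and 1.52% of all assessed promoters. The median of the mean differences was 41.6 points over 20 promoters of the list and -5.6 points over 4990 promoters of all genes. Such medians leave out assessed promoters at which neither iPSC line had a listed position left. The list was chosen with earlier results of these data known, so it is not independent evidence of its direction. Hormad1, a protein of the meiotic chromosome axis, held 5 shared positions, with medians of 58.4 points in iPSC 1 and 41.7 points in iPSC 2. Its means over all listed positions were 63.6 and 46.9 points, beside 52.2 points in gPSC 1 and 51.8 points in gPSC 2. GSC listed 2 hyper positions and 2 hypo positions there, the latter at -65.4 points within 3 bp of the start. Its 250 bases before the start (chr3:95559427-95559676, plus strand) are printed with the CpGs of shared hyper positions in capitals, as the member of this list with the most shared positions in that stretch.
Hormad1: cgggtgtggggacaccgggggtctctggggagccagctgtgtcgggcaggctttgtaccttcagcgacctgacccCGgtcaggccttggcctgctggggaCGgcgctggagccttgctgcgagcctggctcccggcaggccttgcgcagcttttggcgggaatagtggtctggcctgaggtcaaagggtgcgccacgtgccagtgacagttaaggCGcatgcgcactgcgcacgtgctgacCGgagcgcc
Of its 19 CpGs 4 are marked, and each line listed hyper positions that the other did not.

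Among the other called members, Tuba3b, a testis alpha-tubulin, held 8 shared positions with medians of 42.9 points in iPSC 1 and 48.8 points in iPSC 2. Its near-identical paralogue Tuba3a held 3 at 54.0 and 33.5 points, and reads of the 2 genes may be mixed. Asz1 and Mael, both of the piRNA pathway that silences transposons, held 3 at 53.9 and 32.8 points and 2 at 57.5 and 39.2 points. Slc25a31, the ADP/ATP carrier of sperm, held 3 at 58.5 and 60.4 points, and Rpl39l, a testis paralogue of a ribosomal protein, 3 at 41.6 and 40.4 points. Sycp3, of the synaptonemal complex, held only 1 shared position, at 40.9 and 28.0 points, because the lines listed 4 and 5 hyper positions that were mostly different ones. The means over all listed positions of these 7 promoters lay between 29.7 and 55.9 points in the iPSC lines and between 31.0 and 59.6 points in the gPSC lines. GSC had a mean below 0 at Asz1 (-33.5 points) and Tuba3a (-39.5 points), a mean above 0 at Tuba3b, Sycp3 and Rpl39l, and no listed position at Mael and Slc25a31. Dazl, an RNA-binding protein of germ cell development, held 4 shared hyper positions and was not called, since iPSC 2 listed 2 hypo positions beside 7 hyper ones. Its means were 60.2 points in iPSC 1 and 27.0 points in iPSC 2, with -24.6 points in GSC.

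The promoters of the called germ cell genes were searched for the E-box CACGTG and for the E2F site GGCGGGA, on both strands, in the 300 bases around each of their 9 starts. The E-box was present at 5 of 9 starts (55.6%) and the E2F letters at 6 of 9 (66.7%), that is, in 4 and 5 of the 8 genes, since Hormad1 has 2 starts a few bases apart with nearly the same sequence. Of the 8060 starts of assessed promoters, 9.08% had the first and 19% the second, and of the 446 starts of all hyper promoters 8.07% and 8.52%. A match of letters is a description and not a binding site. The median of CpGs was 17 at these starts.

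Genes of spermatogonial stem cells gave 7 assessed promoters, of which 1 was hyper and 0 hypo, beside 5.18% and 1.52% of all assessed promoters. The median was -1.6 points over the 5 with a value. So few promoters do not set the list apart from all genes. The called one was Sohlh2, a bHLH factor of differentiating spermatogonia, with 2 shared positions and means over its listed positions of 39.3 points in iPSC 1 and 37.2 points in iPSC 2. Gfra1, the GDNF co-receptor, held 1 shared hypo position at -80.0 and -83.3 points.

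Pluripotency genes were assessed at 5 promoters, with 0 called hyper or hypo and a median of 28.1 points over the 4 with a value. At the shares of all assessed promoters, 5.18% and 1.52%, a count of 0 in 5 says nothing about the list. Pou5f1, the POU factor of the pluripotency network and the 1 reprogramming factor gene assessed, held 4 shared hyper positions. They stood at 161, 253 and 262 bp from its first start and at -1008 bp from its second. iPSC 1 had 60.2, 55.6, 56.2 and 41.2 points there, and iPSC 2 36.9, 42.9, 48.6 and 32.2 points. All 4 were lower in iPSC 2. GSC listed the last 3 at 97.4 to 100 points, above both iPSC lines. Over the whole window the promoter was mixed, with 7 hyper and 4 hypo positions in iPSC 1 and 17 and 1 in iPSC 2. The OG2 reporter carries Pou5f1 sequence, and its copies can contribute reads. Fgf4, a growth factor of early embryos, held 1 shared hypo position at -78.7 and -75.3 points.

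At imprinted genes, 6 promoters of maternally methylated imprints and 3 of paternally methylated imprints and the Dlk1-Dio3 cluster were assessed, and 0 were called. The medians were -6.9 points over the 4 maternal ones with a value and -5.8 points over the 3 others. These numbers of promoters too are small against shares of 5.18% and 1.52% over all assessed promoters. None of the 16 maternal imprint promoters with a start held a shared position, beside 3078 of the promoters of all 27025 genes. With 6 of the 16 assessed, this does not set the list apart from all genes. Meg3, the non-coding RNA of the Dlk1-Dio3 cluster whose silencing is known from some iPSC lines, held 1 shared hyper position 75 bp after a start, at 33.5 and 41.5 points. Igf2, a growth factor, held 1 at 43.8 and 26.3 points, and Dio3, a deiodinase, 1 hypo position at -40.1 and -34.8 points. The Igf2 promoter was mixed, since each line also listed 1 hypo position there. Its means were -12.1 points in iPSC 1 and 0.6 points in iPSC 2. Only promoter windows were read, so control regions elsewhere were not analysed here.

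The other lists had too few assessed promoters to be set apart from all genes, of which 5.18% were hyper and 1.52% hypo. Lineage regulators had 14 assessed with 1 call, Pou4f1, and a median of 29.9 points over 12 with a value. Hox genes had 10 assessed with 0 calls and a median of 18.5 points over 9 with a value. Hoxd1 came closest to a call in the number of shared positions, 6 in 58 bp at 34.1 to 38.6 points in iPSC 1 and 41.4 to 51.7 points in iPSC 2, but iPSC 2 also listed 9 hypo positions. Wnt, BMP and FGF ligands had 14 assessed with 0 calls and a median of -39.1 points. Methylation machinery genes had 7 with 0 calls and a median of -6.5 points over 4 with a value. Housekeeping genes had 2 assessed (median -17.0 points), 2-cell-like genes none. Of the markers of cell types a culture could hold, 1 fibroblast, 1 testis somatic, 4 pluripotent and 3 germline stem promoters were assessed, with 0 calls. Medians over the markers were -6.7, 50.9, 27.5 and -63.2 points, over 1, 1, 3 and 2 with a value. These are too few promoters to check the labelled cell types.

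The same shared positions were looked up in the other libraries, which share the reference, so that how often they are listed there is no result. GSC listed 44445 of the 57870 shared hyper positions as hyper, with a median of 75.8 points, and 24 as hypo, with a median of -33.26 points. gPSC 1 listed 43046 as hyper (66.7 points) and gPSC 2 47270 (61.61 points), and neither listed any as hypo. Of the 3458 shared hypo positions, GSC listed 2170 as hypo, with a median of -50.7 points, and 83 as hyper, with a median of 41.14 points. gPSC 1 listed 2402 as hypo (-49.58 points) and 1 as hyper, and gPSC 2 listed 1458 as hypo (-52.59 points). Each median is over the positions that library listed, and so not over the same set as the iPSC medians.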

How the data were processed

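Reduced representation bisulfite libraries of 6 OG2 lines were analysed from 10 tables, 1 hyper and 1 hypo per library other than ESC. Each table gives, as deposited by the authors, a p-value and a q-value per position and a methylation difference in percentage points. The tools Bismark, Bowtie2, GATK and methylKit, with mm10 and GRCm38 as builds, are named per the submitters' processing notes, without roles. Their settings were not given in the sources used here. Every q was at most 0.01 and every difference at least 25 points. A p-value compares 1 library with 1 reference library. Coverage is not in the tables, so the depth per sample and any interval are unknown. The 2 iPSC lines are independent lines per the series' design. No test was made, because the positions were chosen by the values themselves.

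Positions were joined on chromosome and coordinate (GRCm38). Starts and promoter sequences came from RefSeq (GRCm38.p6; 32851 starts of 27025 genes; chromosome 18 starts were not used here). Promoters and 1000 bp windows were called with at least 3 listed positions of a direction that made up at least 80% of those listed, in each line. A promoter's value is the mean of the deposited differences at its listed positions, in 1 library.

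Named were, per direction, the 15 promoters with the most shared positions and the 8 genes with the most outside their own promoter. The 5 fullest windows, called members of 16 gene lists, and pluripotency, factor and imprint genes holding a shared position were named too. Predicted genes were left out of the rankings. Sequences are those of the ranked promoters with the most shared positions in 250 bp, at most 4 per direction, and Hormad1, which was added. Dazl, Gfra1, Hoxd1, Stt3b, Nup50, Camk2n2, Gm19412 and Gm20716 fall outside the rule and were named after their values were seen. The positions, lists and rules were chosen with earlier results of these data known. The joining was tested on simulated data. Python 3.11.15, pandas 2.3.3, numpy 2.4.6 and matplotlib 3.10.9 were used. Alternatives were the removal distance, larger differences, a stricter q, facing cytosines counted once, single lines, and the number, purity and window of calls.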

Additional observations from a re-analysis of the deposited data

How the results depend on the processing

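Counts kept within 1.5 times of their values when positions within 50 bp of an opposite one were removed, when positions 1 bp apart were counted once, when calls needed purity of 100% and when promoters began 1000 bp upstream. Without any removal there were 7982 hypo positions and 59 hypo promoters. With differences of at least 50 points there were 31244 hyper and 1590 hypo positions, 97 and 44 promoters, and 1948 and 59 windows. With q of at most 0.001 there were 2082 hypo positions, 41 hypo promoters, and 3633 hyper and 47 hypo windows. With 5 positions per call there were 115 and 43 promoters and 1539 and 50 windows. Leaving out 1 iPSC line, so that the other alone decides, gave 107202 to 119553 hyper and 14259 to 24610 hypo positions, 738 to 751 hyper and 453 to 695 hypo promoters, and 10184 to 10949 hyper and 681 to 1162 hypo windows. The count of hyper germ cell promoters, 8, whose alternatives were chosen after seeing the data, was 1 at 50 points, 5 with 5 positions per call, and 9 to 11 with 1 line. It was 0 for hypo ones under every alternative run but was not tested. The causes of these changes were not tested, apart from fewer positions or lines entering by construction. A coverage minimum could not be run, since coverage is not in the tables, and depth therefore limits every value to an unknown degree. No paired analysis was possible because the results come from no test.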
